A study of Mus musculus with 8 samples.

Results

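The Cdk6 locus was taken as all accessible regions (peaks) that overlap mm9 chromosome 5 from 3335000 to 3535000, a stretch of 200 kb. Cdk6 lies on the plus strand in it and starts at about 3344300. By this rule 40 of the 134473 peaks of the deposited table belonged to the locus, chosen by position and not by signal. Open chromatin was profiled with Omni-ATAC, a form of bulk ATAC-seq in which a transposase inserts adapters into accessible DNA. The cells were MPP2 cells, multipotent progenitors of the LSK gate (no lineage markers, with Sca1 and Kit) that were Flt3-CD150+CD48+, from bone marrow of C57BL/6 mice aged 8 to 12 weeks. The 2 groups were Vwf+Gata1+ MPP2 and Vwf-Gata1+ MPP2, with 4 libraries of 500 cells each. Both groups were sorted as Gata1+, so by the labels they differ in Vwf alone. The sources used here do not say how Vwf and Gata1 were detected in the sort or whether animals were pooled.

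Cdk6 encodes a cyclin-dependent kinase. It pairs with D-type cyclins and, with its close relative Cdk4, phosphorylates the retinoblastoma protein Rb1, which releases E2F factors and lets a cell leave quiescence and enter the cycle. INK4 inhibitors such as Cdkn2c bind the kinase and hold it inactive. In blood, Cdk6 is known for setting how fast stem and progenitor cells enter the cycle. The comparison asks whether open chromatin at this gene differs between MPP2 cells with and without Vwf. ATAC-seq reports open DNA and not the level of the kinase or its mRNA, and the peaks of its partners and inhibitors were not analysed here, since no gene annotation of the build mm9 was used.

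The strongest peak of the locus lay at the start of the gene (mm9, 3341050 to 3344713) and is called the promoter peak. The 250 bases before a RefSeq start of Cdk6 are shown as sequence of the gene's promoter. They were not placed on mm9, so whether they lie under this peak was not checked. Capitals mark letters that match an E-box (CACGTG) and a TATA box (TATAAA). The sequence comes from RefSeq on GRCm38.p6, chr5:3343643-3343892, plus strand, a build whose coordinates are not those of the peak table.
Cdk6 promoter: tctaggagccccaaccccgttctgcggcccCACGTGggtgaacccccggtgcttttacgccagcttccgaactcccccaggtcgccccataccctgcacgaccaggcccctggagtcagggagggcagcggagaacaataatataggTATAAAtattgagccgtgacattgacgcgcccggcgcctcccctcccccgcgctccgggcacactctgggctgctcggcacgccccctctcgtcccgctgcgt

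The E-box, a core letter string of basic helix-loop-helix factors such as Myc, stood 220 to 215 bases before the start. It occurred in 6.02% of 32851 promoter windows of the same length. The letters TATAAA stood 103 to 98 bases before the start, and 12.4% of windows held them on either strand. This is a letter match, and whether it serves as a TATA box was not tested. Neither string overlapped the other. No match on either strand was found for the GC box GGGCGG, the CCAAT box CCAAT, the E2F strings TTTCCCGC and TTTGGCGC, the GATA string AGATAA, the ETS string CCGGAAG or the AP-1 string TGANTCA. These letters occurred in 32.7%, 33.8%, 0.895%, 0.417%, 9.99%, 6.91% and 6.75% of windows, in that order. G and C made up 66% of its bases, a share that 85.2% of the windows did not exceed, and it held 22 CpG dinucleotides. The motifs were chosen with this sequence in view.

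In the gene table of GRCm38.p6, the long non-coding RNA gene Gm36470 overlaps the start of Cdk6. Another such gene, Gm29868, overlaps Cdk6 after its start. Fam133b is the next protein-coding gene after Cdk6. Counts at a shared stretch cannot be split between such genes. Exon and intron borders on mm9 were not used here, so peaks after the start are given by the distance of their centre from it.

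The total count in peaks ran from 4628997 to 7753538 per library, of which 1704 to 3201 fell in the locus. Signal is given in CPM, counts scaled to a common library size, after TMM scaling. The labels do not tie replicates to separate animals. The p-values therefore cover only the spread among these libraries, which may be technical. Replicate 1 of both groups stood apart. Their share of counts in the strongest 1% of all peaks was 10.8% (Vwf+Gata1+) and 10.2% (Vwf-Gata1+), against 11.1% to 12.0% in the other 6 libraries. The marker genes of MPP2 cells could not be checked without peaks assigned to genes.

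The locus was among the densest stretches of open chromatin in the table. Of 10432 windows of 200 kb, tiled over the genome, that held a peak, 185 (1.77%) held at least 40, and the median window held 10. Its summed signal, 396 CPM on average over the 8 libraries, was reached by 3.17% of windows, with a median of 52.1 CPM. The peaks covered 11.5% of the region. Peak widths ran from 208 to 3664 bp, with a median of 387 bp against 393 bp over all peaks. The median signal per length was 10.99 CPM per kb, against 6.73 CPM per kb over all peaks.

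No peak lay between the region's 5' edge and the promoter peak. After the start, 7 peaks had their centre within 25 kb, 12 between 25 and 100 kb, and 20 beyond 100 kb. The promoter peak held 27.4% of the counts of the locus on average over libraries, and these 3 groups held 8.15%, 21.3% and 43.1%. The longest gap without a peak was 21.9 kb. Signal was uneven: 3 peaks exceeded 25 CPM, 14 had 5 to 25 CPM and 23 had less than 5 CPM. Every peak had at least 1 count in each library, and the lowest count was 2.

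**Figure D1:**
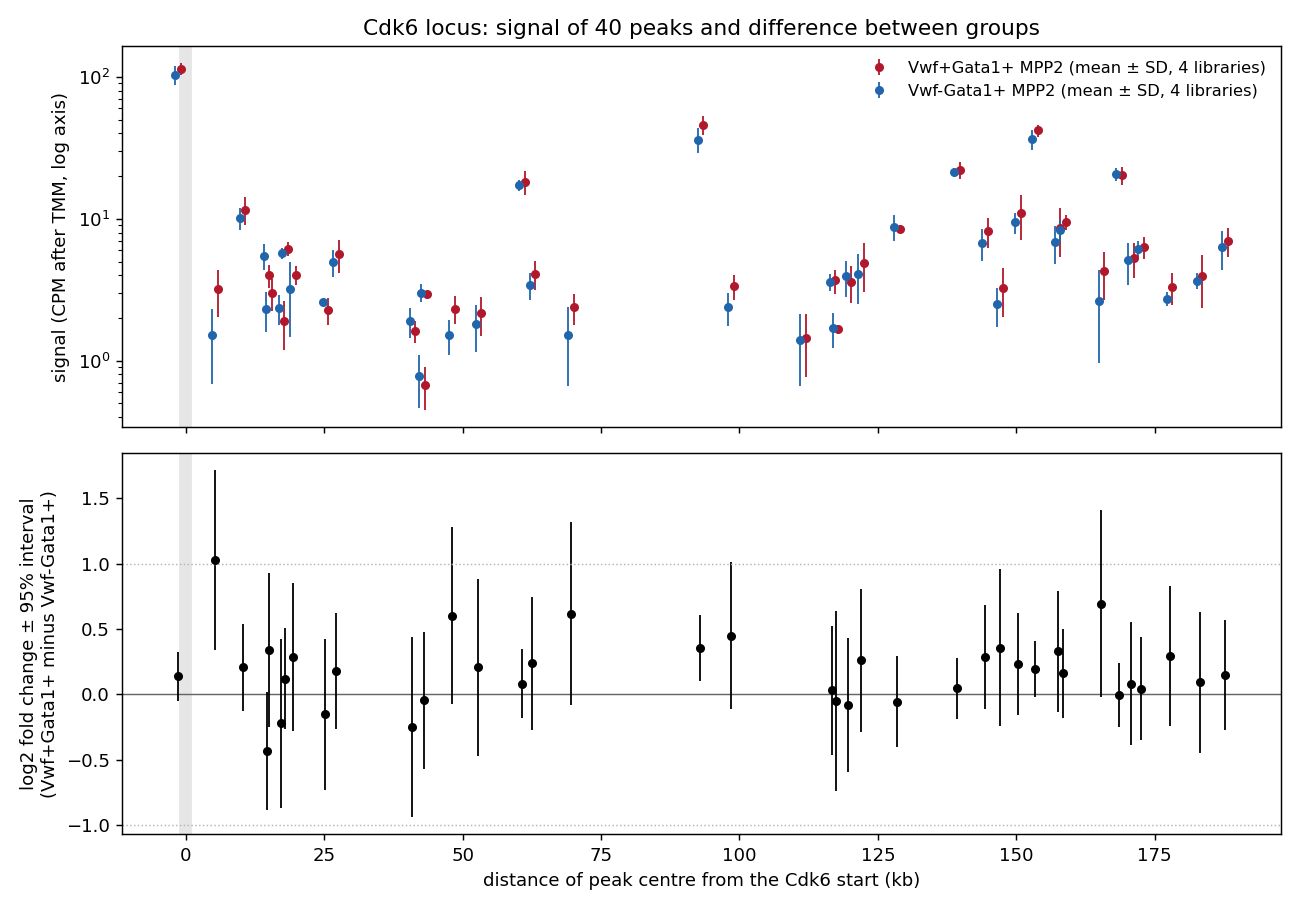
Peaks of the Cdk6 locus by distance of their centre from the Cdk6 start in kb (grey band, 1 kb on either side of the start). The upper panel gives the signal in CPM on a log axis (points, mean; bars, SD over 4 libraries; the groups are shifted sideways by 0.5 kb for display), and the lower panel the log2 fold change with its 95% interval for the 38 tested peaks. The promoter peak, with its centre at -1.4 kb, is the highest at 109 CPM on average. In the lower panel 29 of the 38 points lie above 0.

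The promoter peak ranked 147th of all peaks by signal, and only 2 peaks of the table were wider than its 3664 bp. Its signal was 101, 127, 110 and 116 CPM in replicates 1 to 4 of Vwf+Gata1+ cells, from 764, 679, 482 and 809 counts. It was 81.9, 112, 117 and 104 CPM in replicates 1 to 4 of Vwf-Gata1+ cells, from 627, 726, 599 and 713 counts. The groups overlapped, and replicate 1 was the lowest library of each. The means were 114 ± 11.2 and 104 ± 15.4 CPM (SD, n = 4 each). The log2 fold change, here always Vwf+Gata1+ minus Vwf-Gata1+ cells, was 0.14 ± 0.09 (SE), with an edgeR adjusted p of 0.840. The 95% interval of the fold ran from 0.965 to 1.25, so larger changes at the promoter lie outside it. Counting error alone would give a coefficient of variation of 3.88%, while the libraries varied by 9.85% and 14.8% within groups. Without replicate 1 of both groups, the means were 118 ± 8.61 and 111 ± 6.42 CPM (SD, n = 3 each) and the log2 fold change was 0.10 ± 0.08 (SE; edgeR adjusted p = 0.875). Leaving out replicate 1 of Vwf-Gata1+ cells alone gave 0.04, leaving out replicate 2 of Vwf+Gata1+ cells gave 0.08, and any other single library 0.12 to 0.20.

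By edgeR's quasi-likelihood test, 0 of the 38 tested peaks of the locus reached an adjusted p under 0.05, where 0.0144% of all 97040 tested peaks did. DESeq2 and limma-voom with quality weights also called 0 of the 38, where they called 8 and 1 of all 97040 tested peaks. With the replicate number as a block, edgeR called 1 of the 38, the peak at +92.9 kb, and 511 of all 97040. The labels do not say that a shared number pairs libraries. At an unadjusted p under 0.05, 2 of the 38 were higher in Vwf+Gata1+ cells and 0 were lower, by edgeR. The same held for 3.52% and 3.2% of all tested peaks. DESeq2 gave 2 and 0, against 1.97% and 1.51% of all tested peaks, and limma-voom 4 and 0, against 3.85% and 3.64%. The count of higher peaks depended on the libraries. It was 7 of 38 without replicate 1 of Vwf-Gata1+ cells (3.65% of all tested peaks) and 6 of 38 without replicate 1 of both groups (3.64%). It was 4 without replicate 3 (2.96%) or 4 (3.14%) of Vwf+Gata1+ cells or replicate 2 of Vwf-Gata1+ cells (3.13%). Without any other single library it was 2 or 3 (3.11% to 4.23%). The lowest adjusted p in the locus was 0.457 in the main edgeR fit, which had no block. The other 2 peaks of the locus, at +42.6 and +111.5 kb, had too few counts to be tested, with 0.729 and 1.42 CPM on average.

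The lean of the locus was toward Vwf+Gata1+ cells. The log2 fold change was above 0 at 29 of the 38 tested peaks (76.3%), against 50.7% of all tested peaks. Its median was 0.17, against 0.004 over all tested peaks, and its range was -0.43 to 1.03. The peaks of a locus share their libraries and are not replicates, so these shares and medians are descriptions without a test. By distance, the log2 fold change was above 0 at 5 of 7 peaks within 25 kb of the start, at 8 of 11 tested peaks between 25 and 100 kb, and at 15 of 19 beyond. The medians of these 3 groups were 0.21, 0.21 and 0.15, above 0 in each stretch. Under total count scaling the median of all tested peaks moved from 0.004 to -0.015, and 29 of 38 peaks of the locus were again above 0. With 1 library left out, the share above 0 ran from 24 of 38 (63.2%, without replicate 1 of Vwf+Gata1+ cells) to 32 of 39 (82.1%, without replicate 2 of Vwf-Gata1+ cells). The median was lowest, 0.11, without replicate 3 of Vwf-Gata1+ cells.

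**Figure D2:**
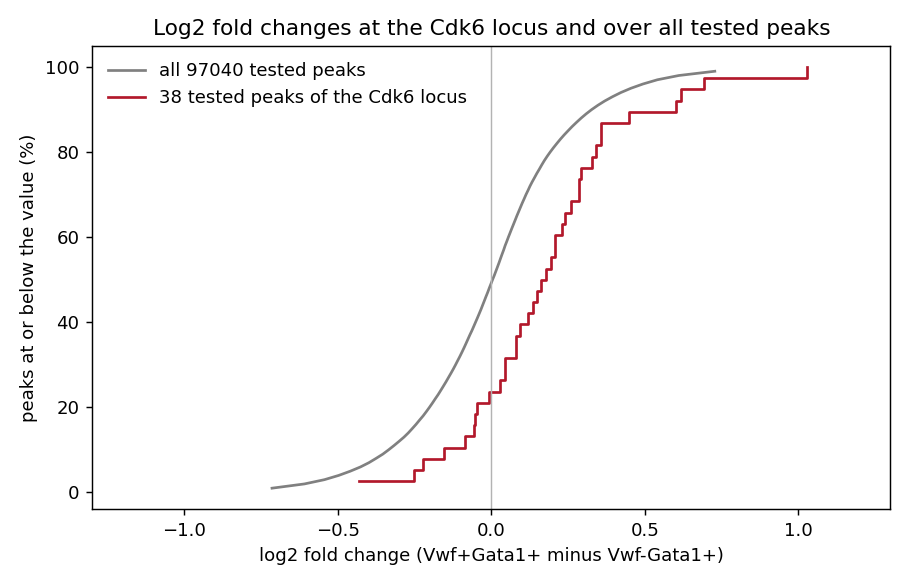
Cumulative share of peaks (y axis, %) at or below a log2 fold change (x axis, Vwf+Gata1+ minus Vwf-Gata1+) for the 38 tested peaks of the Cdk6 locus (red steps) and for all 97040 tested peaks (grey, from the 1st to the 99th percentile). The red steps lie to the right of the grey line, with a median of 0.17 against 0.004. No single peak passed the threshold in the main fit.

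Summed over the 40 peaks, the signal was 422, 427, 391 and 431 CPM in replicates 1 to 4 of Vwf+Gata1+ cells and 360, 391, 375 and 372 CPM in those of Vwf-Gata1+ cells. Replicate 3 of Vwf+Gata1+ cells was just below replicate 2 of Vwf-Gata1+ cells (390.5 against 390.7 CPM), so the groups overlapped at their edge. The means were 418 ± 18.5 and 374 ± 12.6 CPM (SD, n = 4 each), a difference of 0.16 on the log2 scale. Without replicate 1 of both groups they were 416 ± 22.5 and 379 ± 9.92 CPM (SD, n = 3 each), a difference of 0.13. A sum over the chosen peaks was not tested.

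The spread of counts within the locus differed more between replicate 1 and the other libraries than between the groups. The 5 strongest peaks held 52.5% of the locus counts in replicate 1 of Vwf+Gata1+ cells (exact 95% interval 50.8% to 54.3%) and 48.8% in replicate 1 of Vwf-Gata1+ cells (46.9% to 50.7%). In the other 6 libraries they held 59.7% to 62.5%. These intervals cover counting error only. The group means were 58.4% ± 3.93 and 58.2% ± 6.4 (SD, n = 4 each). The summed signal of the 35 weaker peaks was 200.05 and 184 CPM in replicate 1 of Vwf+Gata1+ and Vwf-Gata1+ cells, above the 141 to 172 CPM of the other libraries. The 5 strongest summed to 222 and 176 CPM in these 2 libraries, below the 230.1 to 263 CPM of the others. Both libraries thus had less signal at strong and more at weak peaks of the locus, beside their low share of counts in the strongest 1% of all peaks. The part of this difference in the comparison of groups was not tested beyond the values without both libraries.

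**Figure D3:**
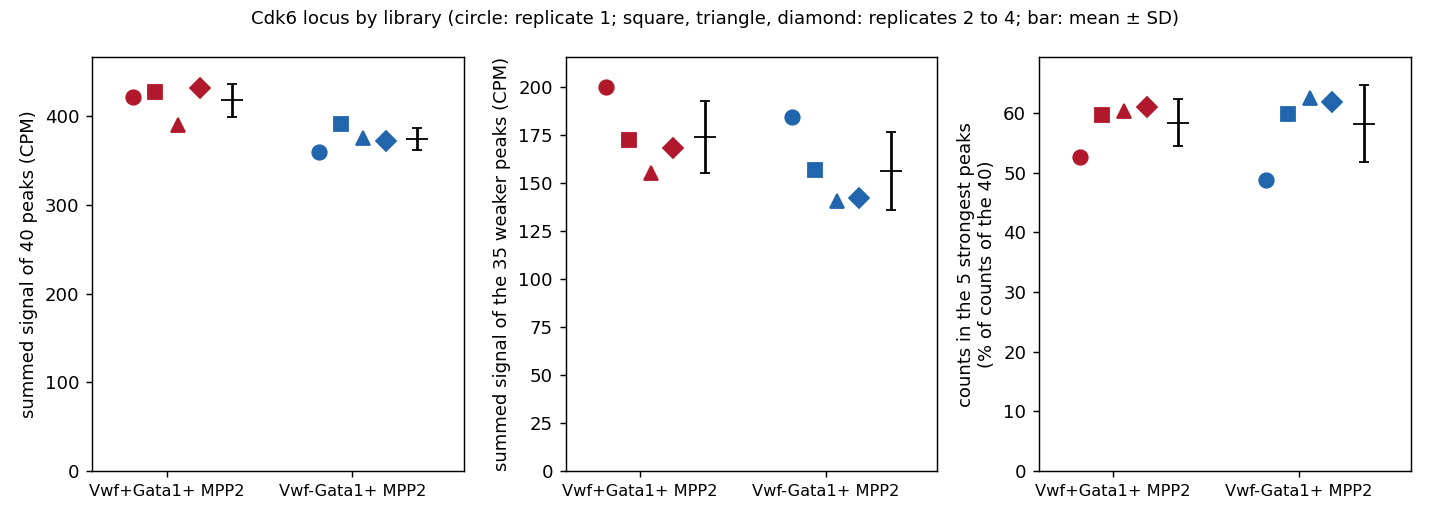
Summed signal of the 40 peaks (left, CPM), summed signal of the 35 weaker peaks (middle, CPM) and share of the locus counts in the 5 strongest peaks (right, %) for each library, with the mean and SD of each group as a bar (4 libraries each). Replicate 1 (circles) is the highest of its group for the weaker peaks and the lowest for the share in the 5 strongest, 52.5% and 48.8%.

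Of the distal peaks, the strongest by CPM lay at +92.9 kb (3435867 to 3438618). At 2752 bp it was also the second widest of the locus, and 29 peaks of the table were wider. Per length it had 14.9 CPM per kb and ranked 12th in the locus. Its signal was 41.2, 42.4, 43.3 and 56.4 CPM in replicates 1 to 4 of Vwf+Gata1+ cells and 26.1, 35.7, 40.8 and 42.0 CPM in those of Vwf-Gata1+ cells. Replicate 4 of Vwf+Gata1+ cells was the highest library, replicate 1 of Vwf-Gata1+ cells the lowest, and the other 6 lay between 35.7 and 43.3 CPM, so the groups overlapped. The means were 45.8 ± 7.07 and 36.1 ± 7.22 CPM (SD, n = 4 each). The log2 fold change was 0.36 ± 0.12 (SE), with an edgeR p of 0.00774 unadjusted and 0.525 adjusted. Leaving out replicate 4 of Vwf+Gata1+ cells gave 0.23, leaving out replicate 1 of Vwf-Gata1+ cells gave 0.22, and any other single library 0.35 to 0.44. Without replicate 1 of both groups it was 0.28 ± 0.11 (SE; edgeR adjusted p = 0.570). With the replicate number as a block it was 0.37 ± 0.08 (SE; edgeR adjusted p = 0.00566). With a term for replicate 1 it was 0.37 ± 0.09 (SE; edgeR adjusted p = 0.0533).

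The largest log2 fold change was at a weak, narrow peak of 217 bp at +5.3 kb (3349500 to 3349716). It had 4.87, 2.44, 2.98 and 2.44 CPM in replicates 1 to 4 of Vwf+Gata1+ cells, from 37, 13, 13 and 17 counts. In replicates 1 to 4 of Vwf-Gata1+ cells it had 2.35, 1.54, 0.390 and 1.75 CPM, from 18, 10, 2 and 12 counts. The 4 Vwf+Gata1+ libraries lay above the 4 others, with 2.44 against 2.35 CPM at the closest. Groups that did not overlap were found at this 1 of the 38 peaks with Vwf+Gata1+ cells higher and at 0 with them lower, against 1.81% and 2.07% of all tested peaks. The means were 3.18 ± 1.15 and 1.51 ± 0.821 CPM (SD, n = 4 each). The log2 fold change was 1.03 ± 0.34 (SE), with an edgeR p of 0.00437 unadjusted and 0.457 adjusted. Its 95% interval ran from a 1.27-fold to a 3.28-fold higher signal before any adjustment for the number of peaks. Without replicate 1 of Vwf+Gata1+ cells the log2 fold change was 0.70 (edgeR adjusted p = 0.659).

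**Figure D4:**
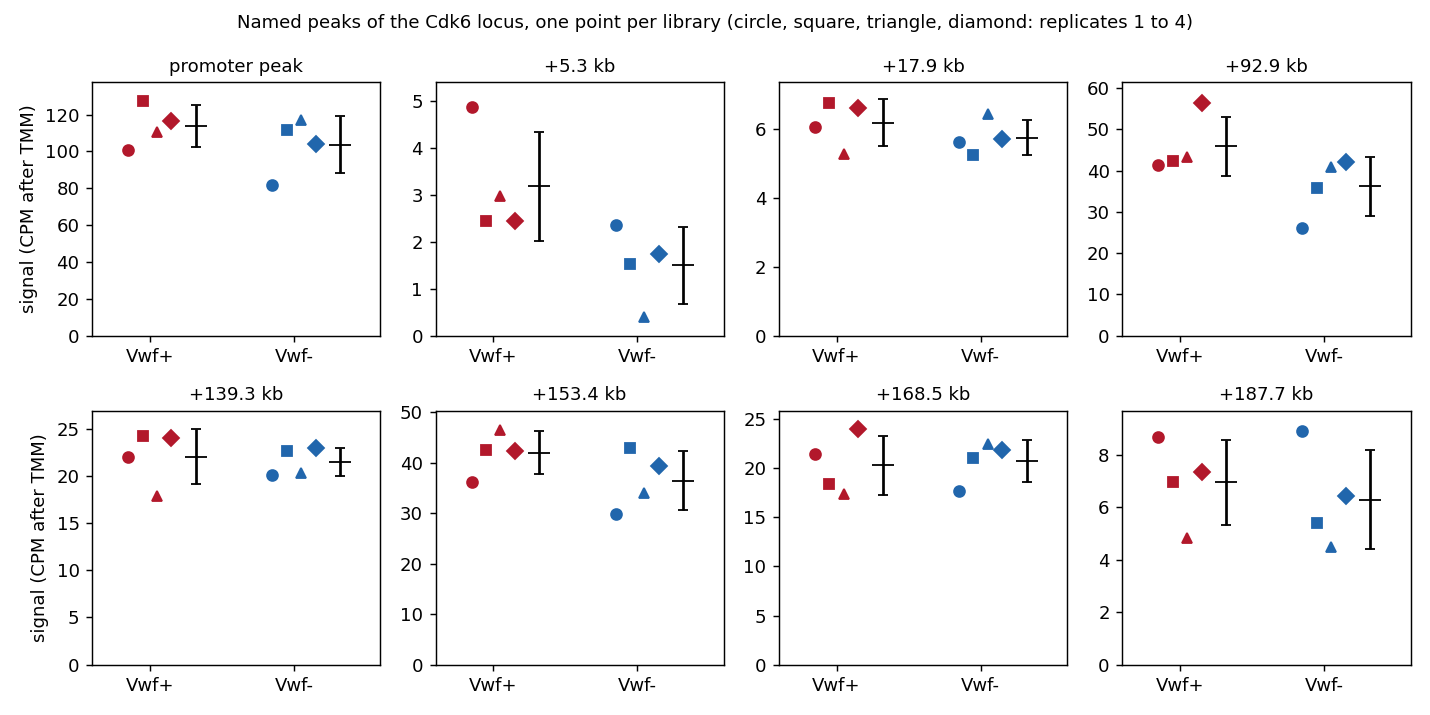
Signal in CPM of 8 peaks of the Cdk6 locus in each library, with panels titled by distance from the start (Vwf+, Vwf+Gata1+ cells; Vwf-, Vwf-Gata1+ cells; bar, mean and SD over 4 libraries). The groups are apart only at +5.3 kb, and replicate 1 of Vwf-Gata1+ cells (blue circle) is the lowest library at the promoter peak, at +92.9 kb and at +153.4 kb.

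A peak at +153.4 kb (3497154 to 3498203) had the highest signal per length of the locus, 37.3 CPM per kb against 29.7 CPM per kb at the promoter peak. It had 36.2, 42.6, 46.5 and 42.4 CPM in replicates 1 to 4 of Vwf+Gata1+ cells and 29.8, 42.9, 33.9 and 39.3 CPM in those of Vwf-Gata1+ cells. The groups overlapped, with replicate 1 lowest in each. The log2 fold change was 0.19 ± 0.10 (SE; edgeR adjusted p = 0.773). It ran from 0.10 without replicate 1 of Vwf-Gata1+ cells to 0.28 without replicate 2 of that group. Of all peaks of the locus, its profile over the 8 libraries was nearest to that of the promoter peak, with a mean absolute difference of 0.10 between centred log2 values. The peaks at +17.9 kb (0.12) and +139.3 kb (0.15) came next. This difference is also small at a peak that varies little, and counting error raises it at weak peaks. The order therefore does not show a shared pattern, and its relation to distance was not tested.

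The next 2 peaks by signal lay in the same far stretch. The peak at +139.3 kb (3483185 to 3484003) had 22.0, 24.2, 17.9 and 24.0 CPM in replicates 1 to 4 of Vwf+Gata1+ cells and 20.1, 22.6, 20.3 and 22.9 CPM in those of Vwf-Gata1+ cells. At +168.5 kb (3512467 to 3513209) the values were 21.5, 18.4, 17.4 and 24.0 CPM and 17.6, 21.1, 22.4 and 21.9 CPM. At both the Vwf+Gata1+ libraries spread around the others. The log2 fold changes were 0.05 ± 0.12 and -0.01 ± 0.12 (SE; edgeR adjusted p = 0.976 and 0.996), with 95% intervals of the fold from 0.878 to 1.21 and from 0.839 to 1.18. Changes of these 2 peaks beyond about these folds are outside the intervals. At +168.5 kb the sign of a value so near 0 turned with several settings.

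Near the gene's start, the peak at +17.9 kb had 6.17 ± 0.673 and 5.74 ± 0.504 CPM (SD, n = 4 each), with a log2 fold change of 0.12 ± 0.19 (SE). A stronger one at +10.3 kb had 11.6 ± 2.6 and 10.1 ± 1.75 CPM, with 0.21 ± 0.17. The lowest log2 fold change of the locus was in this stretch, at +14.6 kb, with 4.00 ± 0.736 CPM in Vwf+Gata1+ and 5.49 ± 1.14 CPM in Vwf-Gata1+ cells. It was -0.43 ± 0.22 (SE), with an edgeR p of 0.0594 unadjusted and 0.758 adjusted. The next peak had 0.34 ± 0.29. These adjacent peaks had opposite signs, and neither passed the test. The peaks at +10.3 and +14.6 kb, the one after it, and those at +48.1, +60.7, +69.6 and +165.4 kb were chosen after their values were seen.

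In the middle stretch the peak at +60.7 kb ranked 6th in the locus with 18.2 ± 3.44 and 17.4 ± 1.54 CPM (SD, n = 4 each) and a log2 fold change of 0.08 ± 0.13 (SE). The weak peaks at +48.1 and +69.6 kb had larger log2 fold changes of 0.60 ± 0.34 and 0.62 ± 0.35 (SE), with 1.92 and 1.95 CPM on average. In the far stretch the peak at +165.4 kb had 4.28 ± 1.58 and 2.65 ± 1.69 CPM with a log2 value of 0.69 ± 0.35 (SE), adjusted p 0.757 by edgeR. The last peak of the region, at +187.7 kb (3531657 to 3532379), had 6.95 ± 1.61 and 6.29 ± 1.9 CPM and a log2 fold change of 0.15 ± 0.21 (SE). It ran from 0.01 without replicate 1 of Vwf+Gata1+ cells to 0.38 without replicate 1 of Vwf-Gata1+ cells. Just outside the region, 3.57 kb beyond its 3' edge, a peak had 2.62 ± 0.65 and 2.28 ± 0.492 CPM. On the 5' side the nearest peak was 33.4 kb away, with 8.56 ± 0.885 and 7.70 ± 0.98 CPM. Their log2 fold changes were 0.23 ± 0.29 and 0.13 ± 0.17 (SE; edgeR adjusted p = 0.937 and 0.939).

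Medians over the peaks of the locus describe the spread at a typical peak, and weak peaks were not taken apart. The median coefficient of variation within groups was 22.5% for Vwf+Gata1+ and 22.8% for Vwf-Gata1+ cells, close to the 21.2% that counting error alone gives at the median peak. Standard errors of the log2 fold changes had a median of 0.25, against 0.23 over all tested peaks. At 33 of the 38 peaks the 95% interval lay within 2-fold in either direction, and at 85.6% of all tested peaks it did. At the remaining 5 peaks of the locus a 2-fold difference lay within the interval.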

How the data were processed

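The authors deposited raw counts per peak for 8 ATAC-seq libraries. The submitters' processing notes name mm9 as the build and, with no version or role, MACS2, Bowtie2, Picard, SAMtools, FastQC and Trim Galore. The shift to the insertion site, the treatment of duplicates and the merging of peaks are not given in the sources used here. Starts were read as 1-based. Groups came from the labelled cell type and replicate numbers from the titles. Within groups, library pairs differed by more than sampling noise (chi-square per degree of freedom 1.29 to 1.94), so all were kept.

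Peaks were filtered with edgeR's filterByExpr (minimum count 10, minimum total 15), which kept 97040 peaks (72.2%), scaled by TMM and tested together by quasi-likelihood in edgeR (robust dispersions, Benjamini-Hochberg adjustment, threshold 0.05). Standard errors are the size of the log2 fold change divided by the root of F. The test was tried on simulated data, and no detection rate from them is given here. Likeness to the promoter peak was measured on log2 CPM (prior count 2). Named peaks are the promoter peak, the 5 strongest, those at an unadjusted p under 0.05 (8 at most) and the widest. The 3 most like the promoter peak and the first and last peaks are also named. A promoter peak is a peak that overlaps the 1 kb on either side of the start. The locus, lists and rules were chosen with earlier results of these data known. Alternatives were RLE and total count scaling, no filter, a minimum of 1 CPM in 4 libraries, the replicate number as a block, DESeq2, limma-voom, members from 1 kb before the start onward, and each library left out. Leaving out replicate 1 of both groups and a term for replicate 1 were added after seeing the data. Tools were edgeR 4.0.16, DESeq2 1.42.0 and limma 3.58.1 in R 4.3.3, and matplotlib 3.10.9 in Python 3.11.15.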

Additional observations from a re-analysis of the deposited data

Results flagged for a closer look

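Among 26 sets of 4 libraries examined for a library far from the other 3 of its group, 3 had a gap to the nearest library beyond Dixon's 95% critical value, which chance passes in about 1 of 20 sets. At the peak at +92.9 kb, replicate 4 of Vwf+Gata1+ cells had 56.4 CPM while the other 3 libraries had 41.2 to 43.3 CPM. For the summed signal of the 5 strongest peaks, replicate 1 of Vwf-Gata1+ cells had 176 CPM while the others had 230.1 to 234 CPM. For the share of the locus counts in these 5 peaks, replicate 1 of Vwf+Gata1+ cells had 52.5% while the others had 59.7% to 61.0%.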

How the results depend on the processing

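The summed signal of the locus, the median log2 fold change, the number of peaks above 0 and the promoter peak kept their direction in every alternative run for them, and the promoter peak stayed above the threshold of 0.05 in adjusted p. Their ranges were 0.13 to 0.19 (log2), 0.11 to 0.21 (log2), 24 to 32 peaks and 0.04 to 0.20 (log2). The alternative with members from 1 kb before the start onward dropped no peak, so its values repeat the main analysis. The number of peaks with an adjusted p under 0.05 was 0 in 17 of 18 alternatives. With the replicate number as a block it was 1, the peak at +92.9 kb (log2 fold change 0.37 ± 0.08 SE, edgeR adjusted p = 0.00566, against 0.0533 to 0.99999 in the other alternatives for this peak), with 5 higher and 1 lower peaks at an unadjusted p under 0.05 (5.66% and 4.61% of all tested peaks). Over all peaks the block moved the calls from 14 to 511. The labels do not say what a shared number means. Libraries with the same number deviated together with correlations of 0.301, 0.163, 0.074 and 0.0103 (replicates 1 to 4), not all above 0.1. At an unadjusted p under 0.05, 2 peaks were higher and 0 lower in the main analysis. There were 4 higher with limma-voom (3.85% of all tested peaks) and 6 higher without replicate 1 of both groups (3.64%). With a term for replicate 1 there were 5 higher and 1 lower (4.68% and 4.00%). When 1 library was left out, 2 to 7 were higher and 0 to 1 lower (2.96% to 4.23% and 2.70% to 3.72% of all tested peaks). There was 1 lower peak without replicate 1 of Vwf+Gata1+ cells (3.72% of all tested peaks) or replicate 4 of Vwf-Gata1+ cells (2.86%). At +168.5 kb the log2 fold change of -0.01 became 0.0012 without a filter, 0.00020 with the block and 0.0029 with a term for replicate 1, and ran from -0.10 to 0.053 with 1 library left out. At +139.3 kb it ran from -8.1e-05 to 0.12 with 1 library left out. The cause of these shifts was not tested.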
